A study of Sus scrofa with 6 samples.

Results

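The genes described here encode the centromere, the kinetochore and the spindle checkpoint, the machinery that ties chromosomes to the mitotic spindle. They were taken by symbol from a table of 20131 pig genes: every gene named CENP followed by a single letter, and 32 further named genes. In all 43 genes were found, 15 CENP genes and 28 of the 32 others. AURKA, KNL1, PLK4 and PTTG1 matched no row by symbol, nor did CENPB, CENPI, CENPO, CENPV, CENPW and CENPX. These genes were not analysed here, so the roles below are not complete. Levels were given as TPM, a gene's share of all transcripts after correction for their length.

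The centromere is marked by nucleosomes that carry the histone variant CENP-A, which dedicated chaperones load. The inner kinetochore is built on these nucleosomes throughout the cell cycle and recruits the outer kinetochore in mitosis, whose NDC80 complex grips microtubules. Unattached kinetochores emit the checkpoint signal that restrains CDC20 and the anaphase-promoting complex, and the passenger complex with Aurora B corrects wrong attachments. Many of these genes are transcribed mainly in the G2 and M phases, so their RNA is abundant in populations that divide fast, among them early embryonic and pluripotent cells.

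Total RNA, depleted of rRNA, was sequenced with its strand kept in 4 libraries of pgEpiSC, pig pre-gastrulation epiblast stem cells of the epiblast at embryonic day 10, and in 2 libraries of pEF, porcine embryonic fibroblasts of the fetus at embryonic day 30. The labels name no treatment, allele, culture medium, breed, line or animal for either group. The series calls the libraries biological replicates, but nothing says which came from separate animals or cultures, so the p-values measure only the spread between these libraries. In bulk RNA, fewer dividing cells and less RNA per dividing cell cannot be told apart.

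The libraries differed in the total that the listed genes held. That total was 157288 to 320206 TPM in pgEpiSC, and 93556 and 145611 TPM in pEF; read depth per library is unknown. Levels are therefore given as deposited, and folds also after median-ratio scaling, which divides each library by the typical ratio of its genes to the mean library. Libraries 1 and 4 of pgEpiSC were the most alike pair, with an SD of the log2 ratio of 0.264 over genes at 10 TPM or more against 0.461 to 0.697 for the other pgEpiSC pairs; they held no identical values and were kept as separate libraries. The labelled cell types matched their markers by level. Of 10 epiblast markers 8 were found, and POU5F1 and SOX2 matched no row by symbol. The 8 summed to 423 to 1831 TPM in pgEpiSC against 0.118 and 0.660 TPM in pEF. In pEF LIN28A, ZSCAN10 and PRDM14 were listed at 0. The 11 fibroblast markers summed to 5.89 to 13.4 TPM in pgEpiSC against 857 and 1924 TPM in pEF, and all 7 of them that reached 1 TPM in some library of each group were called lower in pgEpiSC (limma). Hypoblast and trophectoderm markers summed to 3.85 to 18.0 TPM in pgEpiSC and 8.06 and 19.6 TPM in pEF, with FOXA2 and KRT7 above 1 TPM in each pgEpiSC library and in no pEF library, and PTGS2 at 18.6 and 6.70 TPM in pEF. Markers of endothelium summed to at most 1.53 TPM in any library and markers of blood to at most 2.08 TPM. Muscle markers summed to 2.12 to 4.05 TPM in pgEpiSC and to 25.3 and 227 TPM in pEF, and the part of these 2 sets in the results below was not tested.

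Most genes of the division machinery were higher in pgEpiSC than in fibroblasts. Of the 43 genes, 35 were called higher in pgEpiSC and 0 lower, beside 18.0% of all 10424 tested genes called higher and 9.43% called lower (limma on log2(TPM + 1), p below 0.05 after Benjamini-Hochberg adjustment across the 10424 genes). The ratio of mean TPM had a median of 6.32 over the 43 genes and ran from 1.06 for MIS12 to 14.6 for PLK1. The median log2 fold of the 43 genes was 1.85, against 0.48 over all tested genes. After median-ratio scaling 39 were called higher and 0 lower, beside 28.6% and 29.8% of all tested genes, and the median fold was 1.46 against 0.06 over all tested genes. Over the whole table, 1874 genes were higher and 983 lower as deposited, and 2984 and 3109 after scaling.

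All 43 genes passed the filter of at least 1 TPM in at least 2 libraries. Of them, 7 did so through pgEpiSC alone, so their direction was set by the filter: CENPL, CENPM, CENPT, ESPL1, HJURP, MIS18A and ZWINT. Of the 36 others 29 were called higher as deposited and 33 after scaling. The share of all genes that passed through both groups and were called was not computed. Many of the 36, such as BUB1, PLK1 and CDC20, reached 1 TPM in pEF library 2 only. They too needed a pgEpiSC library to pass, so the filter also favoured their direction. For the 7 genes the calls are no support, and folds are given as descriptions. For 39 genes all 4 pgEpiSC libraries lay above both pEF libraries, as they did for 36.6% of all tested genes; after scaling the count was again 39, beside 36.3%. The calls of the values as deposited rested on both fibroblast libraries. Without pEF replicate 1 only CDK1 and NUF2 were still called, 2 of 43, without pEF replicate 2 there were 14, and without pgEpiSC replicate 3 there were 24. After scaling, the count without any single library was between 29 and 40, the lowest without pEF replicate 1. Where a single pEF library remained, its spread was taken from the pgEpiSC libraries. Fewer of all tested genes were called higher in these fits too, on both scales, so the loss was not particular to the 43 genes. The median log2 fold of the 43 genes less that of all tested genes was 1.24 without pEF replicate 1 as deposited. It was 1.52 without pEF replicate 2 and 1.37 with all libraries. Without pgEpiSC replicate 3, 1057 of all tested genes were called higher as deposited, against 1874 with all libraries.

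**Figure D1:**
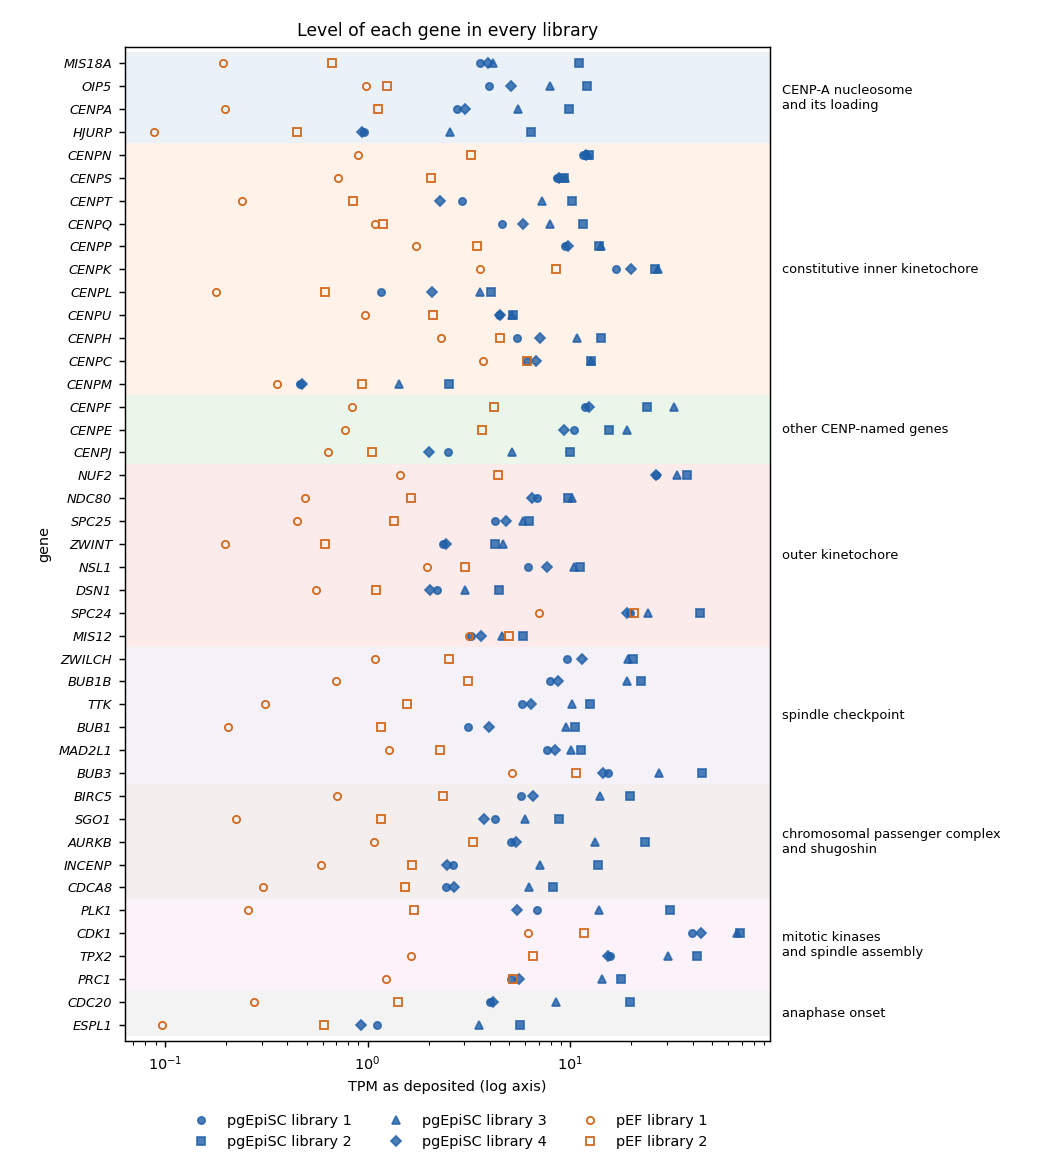
TPM as deposited (log axis) of each of the 43 genes in the 4 pgEpiSC libraries (filled blue) and the 2 pEF libraries (open orange), grouped by role. For 39 genes every pgEpiSC point lies to the right of both pEF points; CENPM, SPC24, MIS12 and PRC1 are the exceptions.

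The genes of the CENP-A nucleosome and its loading were all above fibroblasts in every pgEpiSC library; the filter set the direction of MIS18A and HJURP, and both others, OIP5 and CENPA, were called higher. MIS18A, a subunit of the complex that licenses the centromere for new CENP-A, was at 3.59, 11.1, 4.15 and 3.91 TPM in pgEpiSC libraries 1 to 4, against 0.194 and 0.669 TPM in pEF libraries 1 and 2. OIP5, its partner in that complex, was at 3.95, 12.1, 7.91 and 5.08 TPM against 0.986 and 1.25 TPM. CENPA, the centromeric histone itself, was at 2.75, 9.81, 5.54 and 3.03 TPM against 0.198 and 1.13 TPM. As deposited, library 2 was the highest of pgEpiSC for each of these genes, and no pEF library reached the lowest pgEpiSC library. The log2 folds were 2.12 ± 0.57 (SE) for MIS18A, 1.86 ± 0.57 for OIP5 and 1.84 ± 0.57 for CENPA (limma, adjusted p = 0.0119 and 0.0141 for OIP5 and CENPA). HJURP, the chaperone that carries CENP-A to the centromere, was the least abundant of the 4 genes at 2.71 ± 2.57 TPM (SD, n = 4) against 0.269 ± 0.255 TPM (SD, n = 2), with a fold of 1.33 ± 0.50. OIP5 overlaps the mitotic gene NUSAP1 in the RefSeq annotation, and no source used here says how reads of overlapping genes were assigned. This limit is not particular to OIP5. Of the 42 genes with a RefSeq entry 17 overlap another RefSeq gene, PLK1, ZWILCH and SPC25 among them, and not all are named below.

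The constitutive inner kinetochore, which stays at the centromere in all phases of the cell cycle, was less uniform. Of its 11 measured genes 7 were called higher in pgEpiSC and 4 were not called; without CENPL, CENPM and CENPT, which passed the filter through pgEpiSC alone, 5 of 8 were called. CENPN, which binds the CENP-A nucleosome, was at 11.5, 12.3, 12.2 and 11.9 TPM in pgEpiSC against 0.898 and 3.25 TPM in pEF. CENPS, a histone-fold partner of CENP-T, was at 8.60, 9.30, 9.36 and 8.74 TPM against 0.712 and 2.06 TPM. CENPT, the histone-fold protein that also reaches out to the NDC80 complex, was at 2.93, 10.2, 7.28 and 2.29 TPM against 0.240 and 0.847 TPM. As deposited CENPN and CENPS were nearly level over the 4 pgEpiSC libraries and CENPT varied 4.46-fold, but after scaling this turned round, at 2.87-fold and 2.79-fold for CENPN and CENPS and 1.55-fold for CENPT. Their log2 folds were 2.19 ± 0.54 (SE), 2.13 ± 0.55 and 1.96 ± 0.58 (limma, adjusted p = 0.00208 and 0.00309 for CENPN and CENPS). CENPN and CENPS were also called after scaling, though not without pEF replicate 1. CENPQ and CENPP of the CENP-O group, CENPK of the CENP-H group and CENPL, the partner of CENP-N, were also called, with folds from 1.35 for CENPL to 1.92 for CENPQ. CENPK lost its scaled call with the replicate block and without pEF replicate 1. In the RefSeq annotation CENPP spans the matrix genes OGN, OMD, ASPN and ECM2.

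The inner kinetochore genes that were not called were CENPC, CENPH, CENPM and CENPU. CENPC, the scaffold that links the CENP-A nucleosome to the outer kinetochore, was at 6.12, 12.7, 12.6 and 6.73 TPM in pgEpiSC against 3.69 and 6.08 TPM in pEF. Its lowest pgEpiSC library was just above the higher pEF library, and the fold was 0.80 ± 0.54 as deposited (adjusted p = 0.276) and 0.30 ± 0.20 after scaling (adjusted p = 0.237). CENPM, of the CENP-H group, was the least abundant of the 43 genes in pgEpiSC, at 0.462, 2.51, 1.43 and 0.477 TPM against 0.357 and 0.940 TPM, and the groups overlapped. Its fold was 0.35 ± 0.42 (adjusted p = 0.562). CENPH, at 5.43 to 14.2 TPM against 2.30 and 4.49 TPM, and CENPU, at 4.42 to 5.21 against 0.972 and 2.10 TPM, had folds of 1.21 ± 0.55 and 1.23 ± 0.55 (adjusted p = 0.0974 and 0.0914), and both were called higher after scaling, at 0.73 ± 0.19 and 0.87 ± 0.32 (adjusted p = 0.0121 and 0.0457). These scaled calls were lost with the replicate block and without pEF replicate 1, and that of CENPU also without pEF replicate 2 or pgEpiSC replicate 1, 3 or 4.

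The CENP-named genes outside that inner set act in mitosis or at the centriole, and all 3 measured were called higher. CENPF, a large protein of the kinetochore corona that accumulates in G2, was at 11.8, 23.9, 32.5 and 12.4 TPM in pgEpiSC against 0.842 and 4.19 TPM in pEF. CENPE, the kinesin motor that moves chromosomes to the spindle equator, was at 10.4, 15.4, 19.0 and 9.31 TPM against 0.772 and 3.65 TPM. CENPJ, a builder of centrioles, was at 2.49, 9.92, 5.16 and 2.01 TPM against 0.638 and 1.06 TPM. As deposited, library 3 was the highest of pgEpiSC for CENPF and CENPE and library 2 for CENPJ, and the groups did not overlap. Their log2 folds were 2.66 ± 0.56, 2.29 ± 0.55 and 1.49 ± 0.58 (limma, adjusted p = 0.000338, 0.00167 and 0.0483).

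The outer kinetochore held NUF2, which had the largest log2 fold of the 43 genes as deposited and after scaling, and MIS12, which had the smallest as deposited. Of its 8 measured genes 5 were called higher and 3 were not called; without ZWINT, which passed the filter through pgEpiSC alone, 4 of 7 were called. NUF2, which pairs with NDC80 in the microtubule-binding end of the NDC80 complex, was at 26.4, 37.5, 33.6 and 26.3 TPM in pgEpiSC against 1.44 and 4.39 TPM in pEF. NDC80 itself was at 6.82, 9.71, 10.2 and 6.48 TPM against 0.494 and 1.65 TPM. SPC25, in the end of the complex that docks on the inner kinetochore, was at 4.26, 6.28, 5.86 and 4.83 TPM against 0.449 and 1.34 TPM. For each gene of this trio the lowest pgEpiSC library was far above the higher pEF library. The log2 folds were 3.12 ± 0.52 for NUF2, 2.20 ± 0.55 for NDC80 and 1.76 ± 0.55 for SPC25 (limma, adjusted p = 1.08e-05, 0.00254 and 0.0152). ZWINT, a partner of the checkpoint platform, and NSL1, of the MIS12 complex, were called with folds of 1.63 ± 0.52 and 1.48 ± 0.54. NSL1 was also called after scaling, though not without pEF replicate 1 or without pEF replicate 2.

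SPC24, the partner of SPC25, stood apart from the rest of its complex. It was at 19.6, 43.6, 24.3 and 18.9 TPM in pgEpiSC against 7.00 and 20.5 TPM in pEF, and pEF library 2 lay above pgEpiSC libraries 1 and 4. Its fold was 0.99 ± 0.52 (limma, adjusted p = 0.156), and after scaling 0.45 ± 0.31 (adjusted p = 0.238). Shares within a library do not depend on how libraries are scaled, so each subunit was also set against the sum of the 4 genes. SPC24 held 36.4 ± 5.71% of that sum in pgEpiSC (SD, n = 4) and 74.1 ± 0.784% in pEF (SD, n = 2), and NUF2 held 44.2 ± 3.75% and 15.5 ± 0.300%. In pgEpiSC NUF2 was thus close to SPC24, above it in libraries 1, 3 and 4 and below it in library 2, whereas in both pEF libraries SPC24 led by a wide margin. NDC80 held 11.8 ± 1.56% and 5.59 ± 0.456%, and SPC25 7.60 ± 0.877% and 4.81 ± 0.0288%. The complex holds its subunits in equal numbers as protein, while the RNA levels per length were unequal in both cell types. The differences between shares were not tested.

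MIS12, the namesake of the complex that joins the inner kinetochore to the NDC80 complex, was the gene nearest to no difference as deposited; after scaling that was CENPM, at 0.05. MIS12 was at 3.23, 5.81, 4.58 and 3.64 TPM in pgEpiSC against 3.15 and 4.96 TPM in pEF. Both pEF libraries lay within or next to the pgEpiSC range, and the fold was 0.07 ± 0.55 (limma, adjusted p = 0.937); after scaling all 4 pgEpiSC libraries were below both pEF libraries, at -0.40 ± 0.23 (adjusted p = 0.161). DSN1, of the same complex, was at 2.20, 4.42, 3.03 and 2.03 TPM against 0.557 and 1.10 TPM. The groups did not overlap for DSN1, whose fold of 1.08 ± 0.53 was not called as deposited (adjusted p = 0.122) and was called after scaling, at 0.76 ± 0.17 (adjusted p = 0.00586), though not without pEF replicate 1. Of the summed TPM of MIS12, DSN1 and NSL1, MIS12 held 27.0 ± 1.06% in pgEpiSC and 55.1 ± 0.551% in pEF, and NSL1 held 55.1 ± 2.97% and 33.9 ± 1.09%. The order of MIS12 and NSL1 was thus opposite in the 2 cell types in every library. MIS12 overlaps DERL2, and NSL1 overlaps TATDN3, in the RefSeq annotation.

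**Figure D2:**
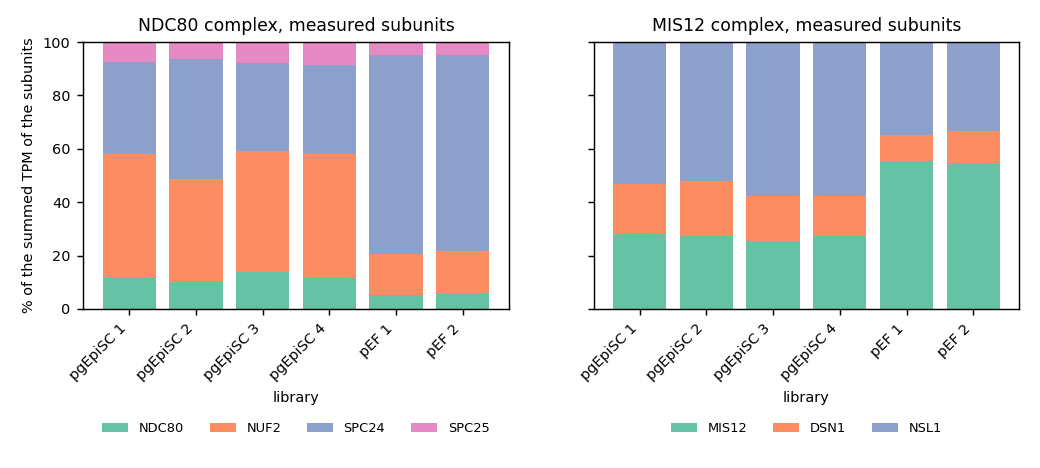
Share of each measured subunit in the summed TPM of the NDC80 complex (left) and of the MIS12 complex (right), in percent, for each of the 6 libraries. SPC24 takes 32.8 to 44.9% in pgEpiSC and 73.5 and 74.6% in pEF, and MIS12 takes 25.4 to 27.9% and 54.7 and 55.5%.

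All 6 measured spindle checkpoint genes were called higher in pgEpiSC. ZWILCH, of the complex that recruits dynein and the MAD proteins to kinetochores, was at 9.61, 20.3, 19.2 and 11.4 TPM in pgEpiSC against 1.09 and 2.51 TPM in pEF. BUB1B, which encodes the BUBR1 subunit of the checkpoint inhibitor, was at 7.97, 22.2, 19.0 and 8.64 TPM against 0.696 and 3.11 TPM. TTK, the kinase that starts the checkpoint signal, was at 5.74, 12.5, 10.2 and 6.41 TPM against 0.312 and 1.56 TPM. For each of these genes pgEpiSC libraries 2 and 3 were the higher pair as deposited, and all 4 lay above pEF. Log2 folds were 2.51 ± 0.54, 2.42 ± 0.57 and 2.35 ± 0.56 (limma, adjusted p = 0.000481, 0.00116 and 0.00154). The kinase BUB1 followed at 2.13 ± 0.58 and MAD2L1, the MAD2 protein that is bound to CDC20 when the checkpoint is on, at 1.91 ± 0.54. BUB3, which brings the BUB proteins to the kinetochore and has roles outside mitosis, was the most abundant of the 6 in both groups, at 25.4 ± 14.0 against 7.87 ± 3.86 TPM, and had the smallest fold of them, 1.50 ± 0.53 (adjusted p = 0.0319).

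The chromosomal passenger complex and the cohesin protector SGO1 were also higher throughout, with 5 of 5 called. BIRC5, which encodes survivin, was at 5.70, 19.6, 14.0 and 6.57 TPM in pgEpiSC against 0.705 and 2.36 TPM in pEF. SGO1 was at 4.27, 8.74, 5.96 and 3.73 TPM against 0.223 and 1.16 TPM. AURKB, the Aurora B kinase, was at 5.10, 23.3, 13.2 and 5.40 TPM against 1.07 and 3.32 TPM. AURKB varied 4.58-fold over the pgEpiSC libraries as deposited and SGO1 2.34-fold, but 1.52-fold and 1.50-fold after scaling, and neither overlapped with pEF. The log2 folds were 2.22 ± 0.57 for BIRC5, 1.98 ± 0.56 for SGO1 and 1.85 ± 0.59 for AURKB (limma, adjusted p = 0.00314, 0.00732 and 0.0159). The scaffold INCENP and CDCA8, which encodes borealin, had folds of 1.60 ± 0.60 and 1.57 ± 0.57. In the passenger complex the shares of the summed TPM lay closer together in the 2 cell types than SPC24 and NUF2 did, although AURKB and BIRC5 did not overlap: AURKB held 33.1 ± 1.98% in pgEpiSC and 38.8 ± 1.95% in pEF, and BIRC5 34.8 ± 3.44% and 26.6 ± 0.135%, with INCENP and CDCA8 between 11.4 and 22.0% in every library.

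Among the mitotic kinases and spindle assembly genes 3 of 4 were called higher. PLK1, the Polo kinase, was at 6.81, 30.9, 13.8 and 5.43 TPM in pgEpiSC against 0.257 and 1.70 TPM in pEF. CDK1, the kinase that drives entry into mitosis, was at 39.8, 68.8, 66.5 and 44.2 TPM against 6.16 and 11.7 TPM. TPX2, the activator of Aurora A on spindle microtubules, was at 15.7, 41.9, 30.4 and 15.3 TPM against 1.64 and 6.52 TPM. PLK1 had the largest ratio of mean TPM of the 43 genes, and CDK1 was the most abundant of them in pgEpiSC. The log2 folds were 2.75 ± 0.60, 2.51 ± 0.49 and 2.46 ± 0.55 (limma, adjusted p = 0.000491, 0.000134 and 0.000693). PRC1, which bundles the microtubules of the central spindle, was at 5.08, 17.8, 14.3 and 5.58 TPM against 1.23 and 5.23 TPM. The groups overlapped for PRC1, since pEF library 2 was above pgEpiSC library 1, and its fold was 1.47 ± 0.58 as deposited (adjusted p = 0.0537) and 1.03 ± 0.29 after scaling, where it was called (adjusted p = 0.0152), though not without pEF replicate 1.

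Of the 2 measured genes of anaphase onset, CDC20 was called higher, and the filter set the direction of ESPL1. CDC20, the activator of the anaphase-promoting complex, was at 4.02, 19.7, 8.52 and 4.13 TPM in pgEpiSC against 0.274 and 1.40 TPM in pEF. ESPL1, which encodes separase, the protease that opens cohesin rings, was at 1.11, 5.65, 3.54 and 0.929 TPM against 0.0974 and 0.608 TPM. As deposited, library 2 was the highest of pgEpiSC for both genes. Their log2 folds were 2.27 ± 0.60 and 1.33 ± 0.51 (limma, adjusted p = 0.00373 for CDC20).

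**Figure D3:**
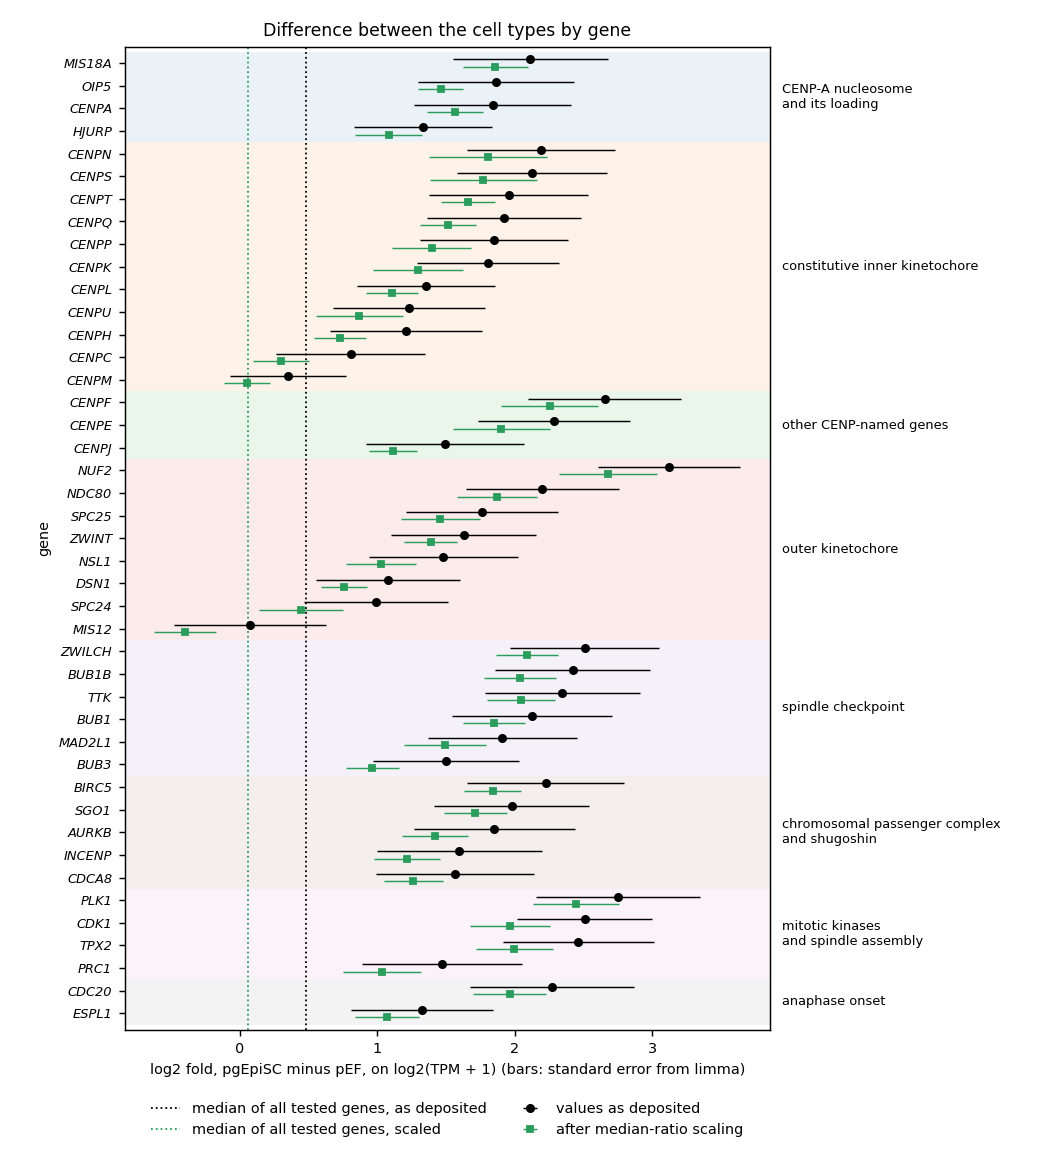
Log2 fold of each of the 43 genes, pgEpiSC minus pEF, on log2(TPM + 1), as deposited (black) and after median-ratio scaling (green), with standard errors from limma; dotted lines are the medians of all tested genes, 0.48 and 0.06. NUF2 is the highest at 3.12 and 2.68, and MIS12 the lowest at 0.07 and -0.40.

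In pgEpiSC the most abundant of the 43 genes were CDK1 at 54.8 ± 14.9 TPM, NUF2 at 31.0 ± 5.57, SPC24 at 26.6 ± 11.6, TPX2 at 25.8 ± 12.8 and BUB3 at 25.4 ± 14.0 TPM (SD, n = 4). CDK1 was above NUF2 in each of the 4 libraries, while the neighbours from NUF2 to BUB3 lay within their spread. In pEF the order was SPC24, CDK1, BUB3, CENPK and CENPC, at 13.7 ± 9.52, 8.93 ± 3.92, 7.87 ± 3.86, 6.03 ± 3.49 and 4.89 ± 1.70 TPM (SD, n = 2), with each neighbour again within the spread. Within each pEF library, though, SPC24 was above CDK1, CDK1 above BUB3 and BUB3 above CENPK. CENPK was above CENPC in pEF library 2 only. PLK1 ranked 10 of 43 in pgEpiSC and 27 in pEF, and MIS12 ranked 37 and 7.

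The 4 pgEpiSC libraries did not carry these genes at 1 level, and their order turned with the scaling. The 43 genes summed to 320, 713, 564 and 338 TPM as deposited in libraries 1 to 4 and to 56.0 and 142 TPM in pEF. As a share of the listed TPM this was 0.204, 0.223, 0.270 and 0.203% against 0.0598 and 0.0975%. After median-ratio scaling the sums were 445, 329, 374 and 461 against 94.6 and 145, so library 2 went from the highest of pgEpiSC to the lowest. On each of these scales every pgEpiSC library was above both pEF libraries. Single genes behaved unequally: as deposited, the highest pgEpiSC library exceeded the lowest by 1.07-fold for CENPN, 1.09-fold for CENPS and 1.18-fold for CENPU, but by 6.85-fold for HJURP, 6.08-fold for ESPL1 and 5.69-fold for PLK1. The median of this ratio was 2.62 over the 43 genes and 3.57 over all tested genes, and after scaling 1.69 and 1.66. After scaling CENPN had the widest ratio of the 43 genes, 2.87, and TPX2 the narrowest, 1.13.

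**Figure D4:**
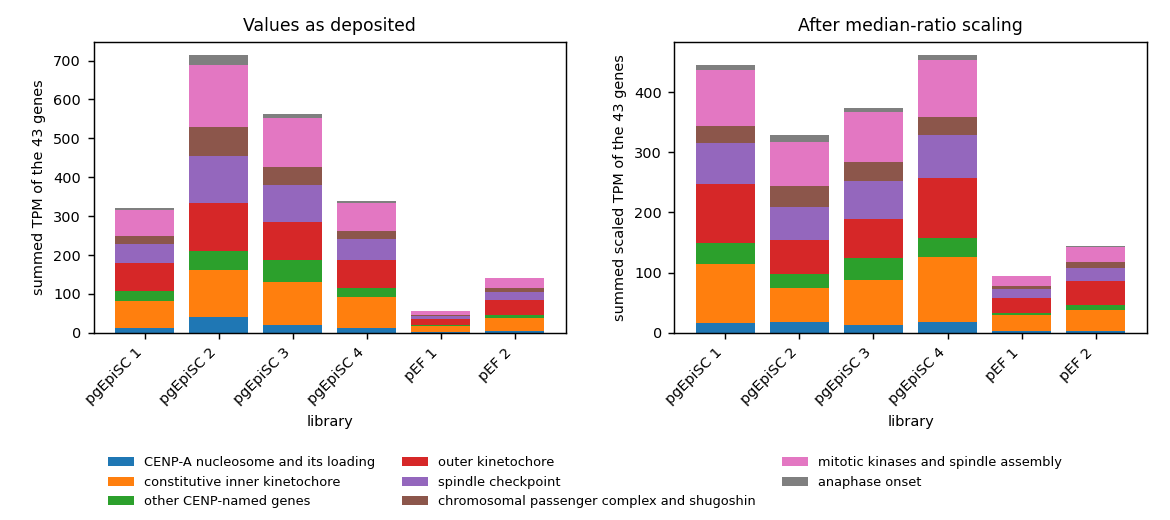
Summed TPM of the 43 genes in each of the 6 libraries, stacked by role, as deposited (left) and after median-ratio scaling (right). The pgEpiSC bars run from 320 to 713 and from 329 to 461, above the pEF bars of 56.0 and 142, and of 94.6 and 145.

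The 2 fibroblast libraries also differed. After median-ratio scaling 38 of the 43 genes were higher in pEF library 2 than in pEF library 1, with a median ratio of 1.88 against 1.01 over all tested genes. The ratio was 3.99 for PLK1, 3.77 for ESPL1, 3.47 for BUB1 and 3.44 for CENPA. It was below 1 for CENPQ, OIP5, NSL1, MIS12 and CENPC, at 0.663, 0.767, 0.925, 0.954 and 0.998. By role the median ratio was 3.44 for the 2 genes of anaphase onset and 2.86 for the other CENP-named genes. It was 2.58 for CENP-A loading, 2.49 for the mitotic kinases and spindle assembly genes and 2.05 for the checkpoint. The passenger complex with SGO1 was at 2.03, the outer kinetochore at 1.79 and the constitutive inner kinetochore at 1.44. The proliferation genes described below had a median ratio of 1.94, and the genes of cell cycle arrest described below 1.09. Among the latter CDKN1A, an inhibitor of cyclin-dependent kinases, was at 0.958 and CDKN1B at 1.29. With 1 library on each side there is no test of this difference.

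**Figure D5:**
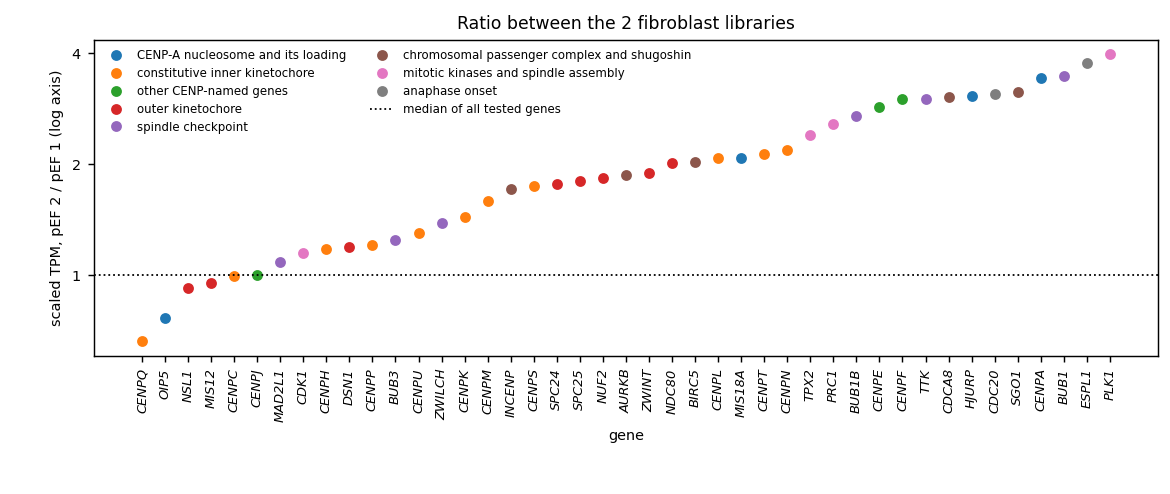
Ratio of scaled TPM in pEF library 2 to pEF library 1 for each of the 43 genes (log axis), coloured by role, with the median of all tested genes dotted at 1.01. The ratios run from 0.663 for CENPQ to 3.99 for PLK1, and 38 of 43 are above 1.

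Other genes of the same processes were set beside them, from lists that hold none of the 43 genes. The counts stand beside 18.0% of all tested genes called higher as deposited and 28.6% after scaling. Called lower were 9.43% and 29.8%. Of 17 tested other kinetochore and checkpoint genes 6 were higher, 0 lower and 11 not called, with a median log2 fold of 1.25; after scaling 12 were higher and 1 lower, the dynein regulator NDEL1 at -0.80. SGO2, a second shugoshin, led at 18.5 ± 4.86 against 1.15 ± 0.948 TPM, a fold of 3.22 ± 0.54 (limma, adjusted p = 1.30e-05). SPDL1, an adaptor of dynein, and KNTC1, the partner of ZWILCH, followed with folds of 2.12 ± 0.55 and 2.05 ± 0.56. Of 15 tested genes of the anaphase-promoting complex and its enzymes 5 were higher (7 after scaling), 0 lower and 10 not called. Their median log2 fold was 0.76. The ubiquitin-conjugating enzymes UBE2S and UBE2C and the subunit ANAPC1 had folds of 2.10 ± 0.52, 1.61 ± 0.57 and 1.80 ± 0.58. CDC16 and FBXO5 were at 1.48 and 1.52. FBXO5 passed the filter through pgEpiSC alone, which set its direction, so its call is no support. For UBE2C the groups overlapped as deposited. Its pEF library 2, at 14.7 TPM, was above pgEpiSC libraries 1 and 4, at 13.4 and 14.4 TPM. Of 17 centrosome and spindle pole genes 9 were higher, 0 lower and 8 not called, with a median of 1.34, and after scaling 12 were higher and 1 lower, the gamma-tubulin gene TUBG1 at -0.43; the centriole gene SASS6, the spindle gene HMMR and the cytokinesis gene ECT2 had folds of 2.61 ± 0.54, 2.42 ± 0.53 and 2.31 ± 0.54. Without the genes that passed the filter through pgEpiSC alone, the counts called higher in these lists were 5 of 13, 4 of 14 and 6 of 13. The matching share over all genes was not computed. Without pEF replicate 1 SGO2 was still called, and SPDL1, KNTC1, UBE2S, ANAPC1, UBE2C, SASS6, HMMR and ECT2 were not; UBE2S, ANAPC1 and UBE2C also lost their calls without pEF replicate 2, and ANAPC1 and UBE2C without pgEpiSC replicate 3. CDC16 and FBXO5 lost their calls in each of these 3 cases.

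Most proliferation genes were higher in pgEpiSC, and some inhibitors of the cell cycle were lower. Of 11 tested proliferation genes 10 were higher, on both scales, and 1, TYMS, was not called, with a median log2 fold of 2.62. The list held 17 genes, of which 12 matched by symbol. MKI67, CCNA2, PCNA, MCM5 and RRM2 did not match, and FOXM1 did not pass the filter. Of all tested genes 18.0% were called higher as deposited and 28.6% after scaling. CCNB1, the cyclin that pairs with CDK1, was at 29.1, 58.2, 46.2 and 32.5 TPM in pgEpiSC against 1.14 and 5.25 TPM in pEF, a fold of 3.49 ± 0.53 (limma, adjusted p = 2.11e-06). TOP2A, the topoisomerase of mitotic chromosomes, and MCM2, of the replicative helicase, had folds of 3.19 ± 0.52 and 2.88 ± 0.58; MCM2 was not called without pEF replicate 1. Called lower were 9.43% of all tested genes as deposited and 29.8% after scaling. Of 12 tested genes of cell cycle arrest 5 were lower, 1 higher and 6 not called, and after scaling 6 were lower and 3 higher. Of the 5, CDKN2A and RB1 passed the filter through pEF alone, which set their direction. CDKN1A, which encodes p21, was at 3.26, 33.2, 3.09 and 1.22 TPM against 143 and 226 TPM, a fold of -4.91 ± 0.64 (adjusted p = 8.70e-08). CDKN1A was below both pEF libraries in every pgEpiSC library, library 2 being the highest of them. CDKN2A, another inhibitor gene, had a fold of -1.99 ± 0.35, and CDKN1B, CDKN2D and RB1, named after their values were seen, were at -1.85, -1.46 and -1.22. The calls of CDKN1B, CDKN2D and RB1 were lost without either pEF library, and those of CDKN2D and RB1 also without pgEpiSC replicate 1, 3 or 4. RBL1, which encodes the pocket protein p107, was the 1 gene of this list that was higher, at 1.89 ± 0.55. RBL1 lost its call without either pEF library or without pgEpiSC replicate 3. The part of these genes in the results for the 43 genes was not tested.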

How the data were processed

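Libraries of strand-specific, rRNA-depleted total RNA were sequenced as 150-bp paired-end reads, per the labels' protocols. Per the submitters' processing notes the tools were STAR 2.6.0c and kallisto 0.44.0; not given in the sources used here are what each did and the genome build. The authors deposited TPM, per the file headers, for 20132 Ensembl genes in 6 libraries. Of these, 14062 (69.8%) were paired with a symbol, and 2 rows that shared a symbol were summed. No sequence of a gene was at hand, and none is shown.

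Genes with at least 1 TPM in at least 2 libraries (10424) were fitted as log2(TPM + 1) with limma 3.58.1 (R 4.3.3), with group as factor, an empirical Bayes variance with a trend and Benjamini-Hochberg adjustment over all of them. A fold on this scale understates the change of low genes. Simulated data with known changes were used to test the fit. The outcome is not given here, and whether the simulation holds for genes of low level was not shown. The simulation is therefore no support for the calls of the genes described. The genes and lists were chosen with earlier results of these data known. In each role the 3 tested genes of largest absolute fold are given in full, with every gene not called; of each further list, the 3 called genes of largest absolute fold. Alternatives were pseudocounts of 0.1 and 5, other filters, scalings and variances, a replicate block, and each library left out. Tables and figures used Python 3.11.15, pandas 2.3.3 and matplotlib 3.10.9.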

Additional observations from a re-analysis of the deposited data

Results flagged for a closer look

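As deposited, the level of MIS18A in pgEpiSC library 2 was far from the other libraries of its group. It was 11.1 TPM there and between 3.59 and 4.15 TPM in the other pgEpiSC libraries, and the gap to the next library was 0.924 of the whole range, above the critical value of Dixon's test for 4 libraries. Of 45 sets of 4 values examined this was the 1 that passed, and chance alone would pass about 1 in 20. After median-ratio scaling library 2 no longer stood apart: the values were 4.98, 5.09, 2.76 and 5.33 in libraries 1 to 4, library 3 being the lowest.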

How the results depend on the processing

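Of the 43 genes, 35 were called higher as deposited. The count was 21 with a pseudocount of 5, 11 with no filter on low values and 22 of the 26 genes tested with a filter at a mean of 5 TPM, and with 1 library left out it ranged from 2 to 36. No gene of the 43 was called lower under any setting. The tested genes were all 20131 with no filter and 10424 in the other settings, except with the filter at 5. The number tested there is not given here, so its counts over all genes cannot be read as a share. All tested genes called higher were 967 with a pseudocount of 5, 717 with no filter, 1185 with the filter at 5, 2984 after median-ratio scaling and 3374 after quantile normalization, and 252 to 2270 with 1 library left out (1919 to 3133 after scaling). Those called lower were 368 with the filter at 5, 3109 after median-ratio scaling, 2924 after rescaling to 1000000, 2779 after quantile normalization and 1616 with library weights, and 555 to 1367 with 1 library left out. Further list genes called higher were 18 with a pseudocount of 5 and 11 with no filter, and 4 to 36 with 1 library left out, against 31 as deposited. Those called lower were 3 with no filter, 1 with the filter at 5, 8 after median-ratio scaling, 8 after quantile normalization and 3 with pgEpiSC libraries 1 and 4 averaged (an alternative chosen after seeing the data, since these 2 libraries were the most alike), and 2 to 5 with 1 library left out, against 5. The median fold of the 43 genes less that of all genes was 1.37 as deposited, 1.95 with a pseudocount of 0.1, 0.74 with 5, 1.77 with no filter and 1.95 after rescaling, and 1.24 to 1.52 with 1 library left out (1.24 to 1.58 after scaling, against 1.40). MIS12 turned to -0.40, -0.69, -0.22 and -0.056 after median-ratio scaling, rescaling, quantile normalization and library weights, with -0.19 to 0.33 with 1 library left out. CENPM turned to -0.072 after rescaling, with -0.094 to 0.20 with 1 library left out after scaling; neither gene was called under any of these. The causes were not tested.

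Whether libraries that share a number are paired is unknown. The deviations of libraries 1 from their group means correlated at 0.0982 and those of libraries 2 at 0.172. Those of pgEpiSC library 4 and pEF library 1, which share no number, correlated at 0.142. With 2 pEF libraries, whose deviations mirror each other, these values cannot decide whether libraries were paired. With the replicate block 36 genes were called higher as deposited, PRC1 and SPC24 gained and CENPL lost, and 36 after scaling. The search for promoter motifs was not run, since no promoter sequences were at hand. TPM keeps no depth, so precision from read counts could not be given.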
